A study of Drosophila melanogaster with 2 samples.

Results

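Notch (N), its DNA-binding partner Su(H), the antagonist Hairless (H) and the 7 basic helix-loop-helix (bHLH) genes of the Enhancer of split complex, E(spl), were examined for peaks of tagged Nemo in Drosophila melanogaster. The 10 genes were taken by name from the genome annotation, where all of them were found, out of 13968 protein-coding genes. The data are chromatin immunoprecipitation sequencing (ChIP-seq) peak lists from 1 group of samples, biological replicates 2 and 3, each made from whole embryos collected from 0 to 24 h, males and females together. Both came from the transgenic strain nmo-GFP, in which the kinase Nemo carries a GFP tag at its C-terminus. Chromatin was sonicated to 200 to 800 bp and recovered with an antibody against GFP. There was no second genotype, stage or treatment and no control sample was analysed here, so the values below are described without a test. A whole embryo mixes all its cell types, so a weak peak carried by many cells and a strong one carried by few cannot be told apart.

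Notch is a cell-surface receptor that is cut when a neighbouring cell presents the ligand Delta or Serrate. Its intracellular fragment then enters the nucleus and joins Su(H) and the co-activator Mastermind on target genes, which Su(H) otherwise holds down together with Hairless, Groucho and CtBP. The E(spl) bHLH genes are classic targets: they encode repressors that recruit Groucho and keep proneural genes off, which in the embryo limits how many ectodermal cells become neural precursors. Nemo is a proline-directed serine/threonine kinase, and its vertebrate relative, Nemo-like kinase, is known to phosphorylate the intracellular part of a Notch receptor.

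Each list gives a summit (the position of a peak's maximum) and a signal value (the authors' measure of peak strength, on a scale of its own in each list). The authors' irreproducible discovery rate (IDR) list held 9299 peaks that passed a threshold on how well peaks repeat, with signal values of at least 166. Whether that threshold compared the 2 replicates or parts of their pool is not given in the sources used here. The pooled list and the lists of replicates 2 and 3 held 30000 peaks each, and 13874 of the pooled peaks, whose median signal value was 86.9, had a q-value above 0.05. Ranks count from 1 for the strongest peak of a list. The peak of the ligand gene Delta had rank 9272 in both the IDR and the pooled list, so every stronger pooled peak was in the IDR list. IDR peaks and other pooled peaks therefore differ as stronger from weaker, besides any difference in how well they repeat. A promoter summit is one within 1000 bp of a transcription start site (TSS), and its position is given in bp from the TSS, negative upstream.

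The sequences under the 6 strongest of the 14 IDR summits of these loci are shown first, because all 6 are poor in G and C (20.4 to 34.8% GC over the 201 bp around the summit). Each runs 5′ to 3′ in assembly dm6. They are the promoter summits of E(spl)m3-HLH (chr3R:26021295-26021495), E(spl)m7-HLH (chr3R:26036562-26036762) and E(spl)mdelta-HLH (chr3R:25997184-25997384), a summit before E(spl)m2-BFM (chr3R:26017876-26018026), a summit between E(spl)mbeta-HLH and E(spl)malpha-BFM (chr3R:26008992-26009192) and a summit in an intron of N (chrX:3162433-3162633), all read on the plus strand. The E(spl)m2-BFM sequence is cut at the 3′ end of lncRNA:CR43643, which runs on the minus strand.
E(spl)m3-HLH: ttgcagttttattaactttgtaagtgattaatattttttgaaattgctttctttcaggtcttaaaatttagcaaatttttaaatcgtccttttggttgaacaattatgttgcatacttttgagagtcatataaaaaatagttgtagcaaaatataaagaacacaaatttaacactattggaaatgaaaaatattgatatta
E(spl)m7-HLH: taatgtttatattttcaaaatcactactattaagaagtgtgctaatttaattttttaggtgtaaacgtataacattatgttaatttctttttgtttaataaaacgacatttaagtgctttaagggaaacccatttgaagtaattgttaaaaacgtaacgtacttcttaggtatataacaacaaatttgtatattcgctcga
E(spl)mdelta-HLH: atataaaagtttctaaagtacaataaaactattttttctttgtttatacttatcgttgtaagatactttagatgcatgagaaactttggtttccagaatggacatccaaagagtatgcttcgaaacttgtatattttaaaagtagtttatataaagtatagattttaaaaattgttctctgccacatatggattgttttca
E(spl)m2-BFM: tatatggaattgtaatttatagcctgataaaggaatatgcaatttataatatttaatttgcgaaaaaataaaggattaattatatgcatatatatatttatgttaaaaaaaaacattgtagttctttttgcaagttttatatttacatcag
between E(spl)mbeta-HLH and E(spl)malpha-BFM: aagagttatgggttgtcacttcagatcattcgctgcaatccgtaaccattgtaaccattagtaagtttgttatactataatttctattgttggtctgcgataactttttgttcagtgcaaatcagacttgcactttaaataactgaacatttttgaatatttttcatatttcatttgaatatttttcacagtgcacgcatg
N intron: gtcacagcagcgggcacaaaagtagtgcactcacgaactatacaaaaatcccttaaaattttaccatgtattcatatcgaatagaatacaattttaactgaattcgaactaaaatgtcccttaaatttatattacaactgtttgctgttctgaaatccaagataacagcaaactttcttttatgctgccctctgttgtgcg

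Promoters of members with a weaker IDR peak or none are shown next: the E(spl)mbeta-HLH window cut at its TSS (chr3R:26006024-26006194, minus strand), the Su(H) window cut at its TSS (chr2L:15039326-15039487, plus strand), the N promoter window (chrX:3134615-3134815, plus strand), and the 300 bp before the TSS of E(spl)mgamma-HLH (chr3R:25999551-25999850) and of E(spl)m8-HLH (chr3R:26039940-26040239), both on the plus strand. Capitals mark Su(H) sites, searched on both strands as CGTGGGAA, CGTGAGAA, TGTGGGAA or TGTGAGAA; a site on the opposite strand appears as its reverse complement. The last 2 promoters each hold a pair of sites that face each other, with 17 bp between them.
E(spl)mbeta-HLH: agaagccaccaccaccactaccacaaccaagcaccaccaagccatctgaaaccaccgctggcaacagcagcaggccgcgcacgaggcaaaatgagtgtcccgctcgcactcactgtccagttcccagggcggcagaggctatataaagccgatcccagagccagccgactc
Su(H): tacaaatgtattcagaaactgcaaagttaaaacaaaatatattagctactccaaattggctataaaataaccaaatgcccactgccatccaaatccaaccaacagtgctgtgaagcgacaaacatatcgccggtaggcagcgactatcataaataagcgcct
N: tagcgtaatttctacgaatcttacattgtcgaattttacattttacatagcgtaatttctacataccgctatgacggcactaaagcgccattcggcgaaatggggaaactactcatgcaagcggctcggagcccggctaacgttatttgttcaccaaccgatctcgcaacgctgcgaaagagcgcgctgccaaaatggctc
E(spl)mgamma-HLH: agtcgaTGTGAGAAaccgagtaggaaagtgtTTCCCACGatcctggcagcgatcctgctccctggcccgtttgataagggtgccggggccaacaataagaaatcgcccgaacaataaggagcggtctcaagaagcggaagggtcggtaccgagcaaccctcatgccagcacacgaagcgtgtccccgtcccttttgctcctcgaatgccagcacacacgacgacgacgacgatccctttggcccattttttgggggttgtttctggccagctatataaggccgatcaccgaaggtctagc
E(spl)m8-HLH: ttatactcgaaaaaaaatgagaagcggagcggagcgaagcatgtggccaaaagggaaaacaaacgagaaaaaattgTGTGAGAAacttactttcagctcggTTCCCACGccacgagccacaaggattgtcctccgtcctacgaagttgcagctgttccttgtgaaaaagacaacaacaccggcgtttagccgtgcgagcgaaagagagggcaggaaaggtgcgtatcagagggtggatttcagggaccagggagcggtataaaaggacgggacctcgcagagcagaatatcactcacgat

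Of the 7 E(spl) bHLH genes, 3 had promoter peaks among the strongest of the genome. E(spl)m3-HLH, at chr3R:26021823-26023127 on the plus strand, had its summit at −428 bp, with a signal value of 2377 in the pooled list (rank 128), 772 in replicate 2 (rank 144) and 1625 in replicate 3 (rank 123). The value stood high in each list, at 27.4, 18.6 and 32.5 times that list's median. Among the 6122 protein-coding genes with a promoter summit in the IDR list, 134 (2.19%) had a stronger one. The same summit lay −319 bp from the start of the non-coding lncRNA:CR43644, which runs the other way, so the peak may belong to either start.

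E(spl)m7-HLH (chr3R:26037038-26038019, plus strand) had its summit at −376 bp, with signal values of 1909 (rank 219), 758 in replicate 2 (rank 153) and 1152 in replicate 3 (rank 272). No other start lay within 1000 bp, and 3.68% of the genes with an IDR promoter summit had a stronger one. E(spl)mdelta-HLH (chr3R:25997621-25998633, plus strand) had its summit at −337 bp, with 1364 (rank 472), 499 in replicate 2 (rank 400) and 886 in replicate 3 (rank 486), and 7.68% of genes exceeded it. Its start lies head to head with that of CG43116, 625 bp away, and the summit lay between them at −288 bp from the latter. A further peak of 1433 sat in an intron of CG43116 at −1023 bp from the E(spl)mdelta-HLH start.

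The remaining 4 bHLH genes had weak peaks or peaks in the full lists alone. E(spl)mbeta-HLH (chr3R:26005046-26006023, minus strand) had an IDR summit at −71 bp of 205 (rank 7747), and 90.2% of genes with such a summit had a stronger one. Its replicates stood apart, with 140 at rank 4158 in replicate 2 and 77.7 at rank 11073 in replicate 3. The IDR summit also lay 979 bp after the start of lncRNA:CR45039. E(spl)mgamma-HLH (chr3R:25999851-26000761, plus strand) fell just outside the IDR list: its pooled peak at −123 bp had a signal value of 146 (rank 10277), below the list's lowest value of 166, with 97.9 in replicate 2 (rank 6672) and 46.8 in replicate 3 (rank 15687).

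E(spl)m8-HLH (chr3R:26040240-26041008, plus strand), the gene affected in the original Enhancer of split mutant, had a pooled peak of 91.0 at −273 bp (rank 14479). Its strongest replicate peaks were 62.1 at −115 bp (rank 10518) and 33.3 at −24 bp (rank 20095). E(spl)m5-HLH (chr3R:26028854-26029735, minus strand) had a pooled peak of 103 at −979 bp (rank 13234). Its replicates placed their strongest promoter peaks 37.2 at +84 bp, inside the coding sequence, and 42.6 at −932 bp. The E(spl)m8-HLH peaks of the replicates overlapped, with values of 1.05, 1.49 and 0.67 times the median of the pooled, replicate 2 and replicate 3 lists. For E(spl)m5-HLH replicate 2 also had a peak of 55.4 (rank 11706) near the pooled summit, just past the 1000 bp limit.

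**Figure D1:**
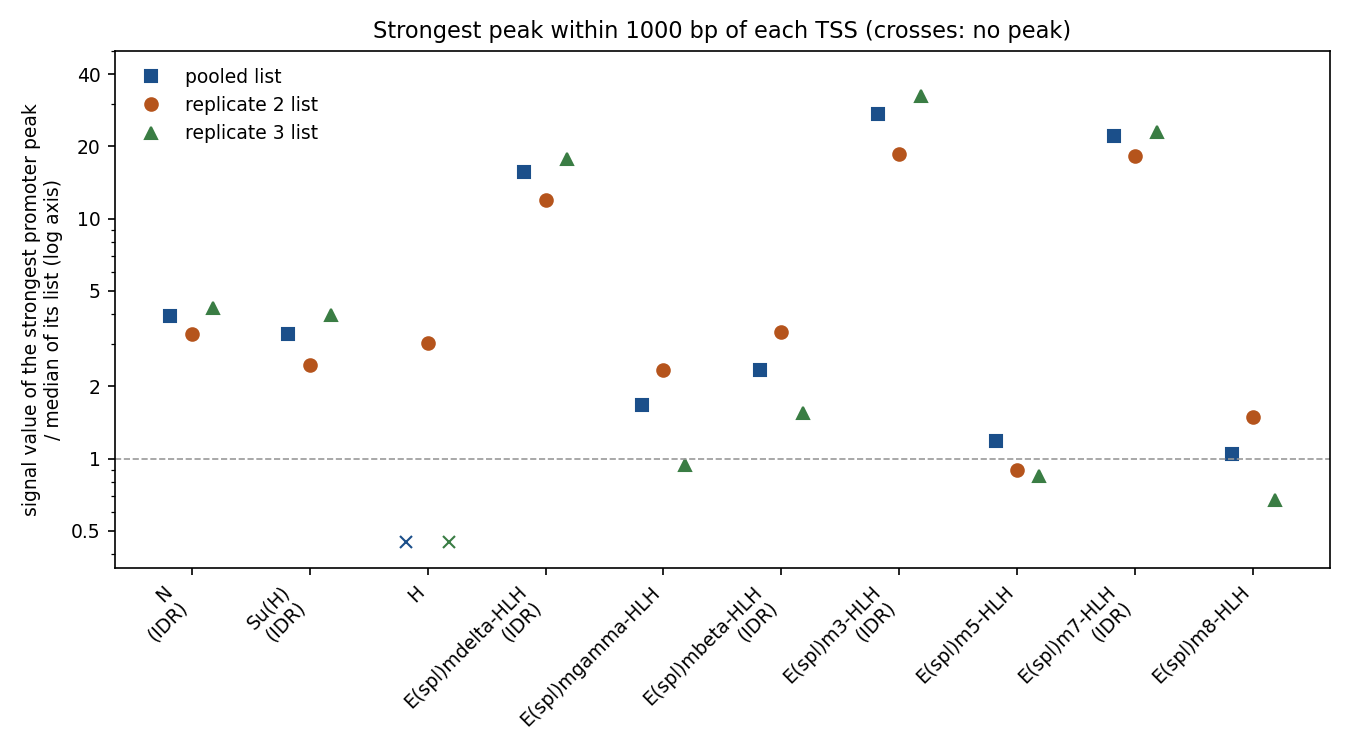
Signal value of the strongest peak within 1000 bp of each TSS, divided by the median signal value of its own list (log axis), for the pooled list (squares) and the replicate lists (circles, triangles); crosses mark no peak and "(IDR)" a promoter summit in the IDR list. E(spl)mdelta-HLH, E(spl)m7-HLH and E(spl)m3-HLH lie between 12.0 and 32.5 in every list, and all other values lie at 4.23 or below.

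The receptor gene N (chrX:3134870-3172221, plus strand) spans 37.4 kb with 8 introns and 1 TSS. Its promoter summit at −155 bp was of middling strength, at 342 in the pooled list (rank 4514), 138 in replicate 2 (rank 4230) and 211 in replicate 3 (rank 4557), and 61.4% of genes with an IDR promoter summit had a stronger one. The ranks repeated closely. The strongest peak of the locus lay inside the gene instead. In intron 5, 27663 bp after the TSS, a summit at position 3162533 reached 1431 (rank 427), with 502 in replicate 2 (rank 396) and 939 in replicate 3 (rank 433). A second IDR summit, in intron 4 at 22577 bp, had 210 (rank 7578), with 89.2 at rank 7405 and 120 at rank 7990.

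These 2 intronic IDR summits of N were joined by weaker ones in the pooled list, 10 in all. Among the 507 protein-coding genes at least as long as N, 59.6% held an IDR summit in an intron over 1000 bp from any TSS, with a median of 1 and a maximum of 34 per gene, so intronic summits are common in genes of this length. A summit of 211 beyond the end of N lay −153 bp from the TSS of CG18508 and is not counted for N.

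**Figure D2:**
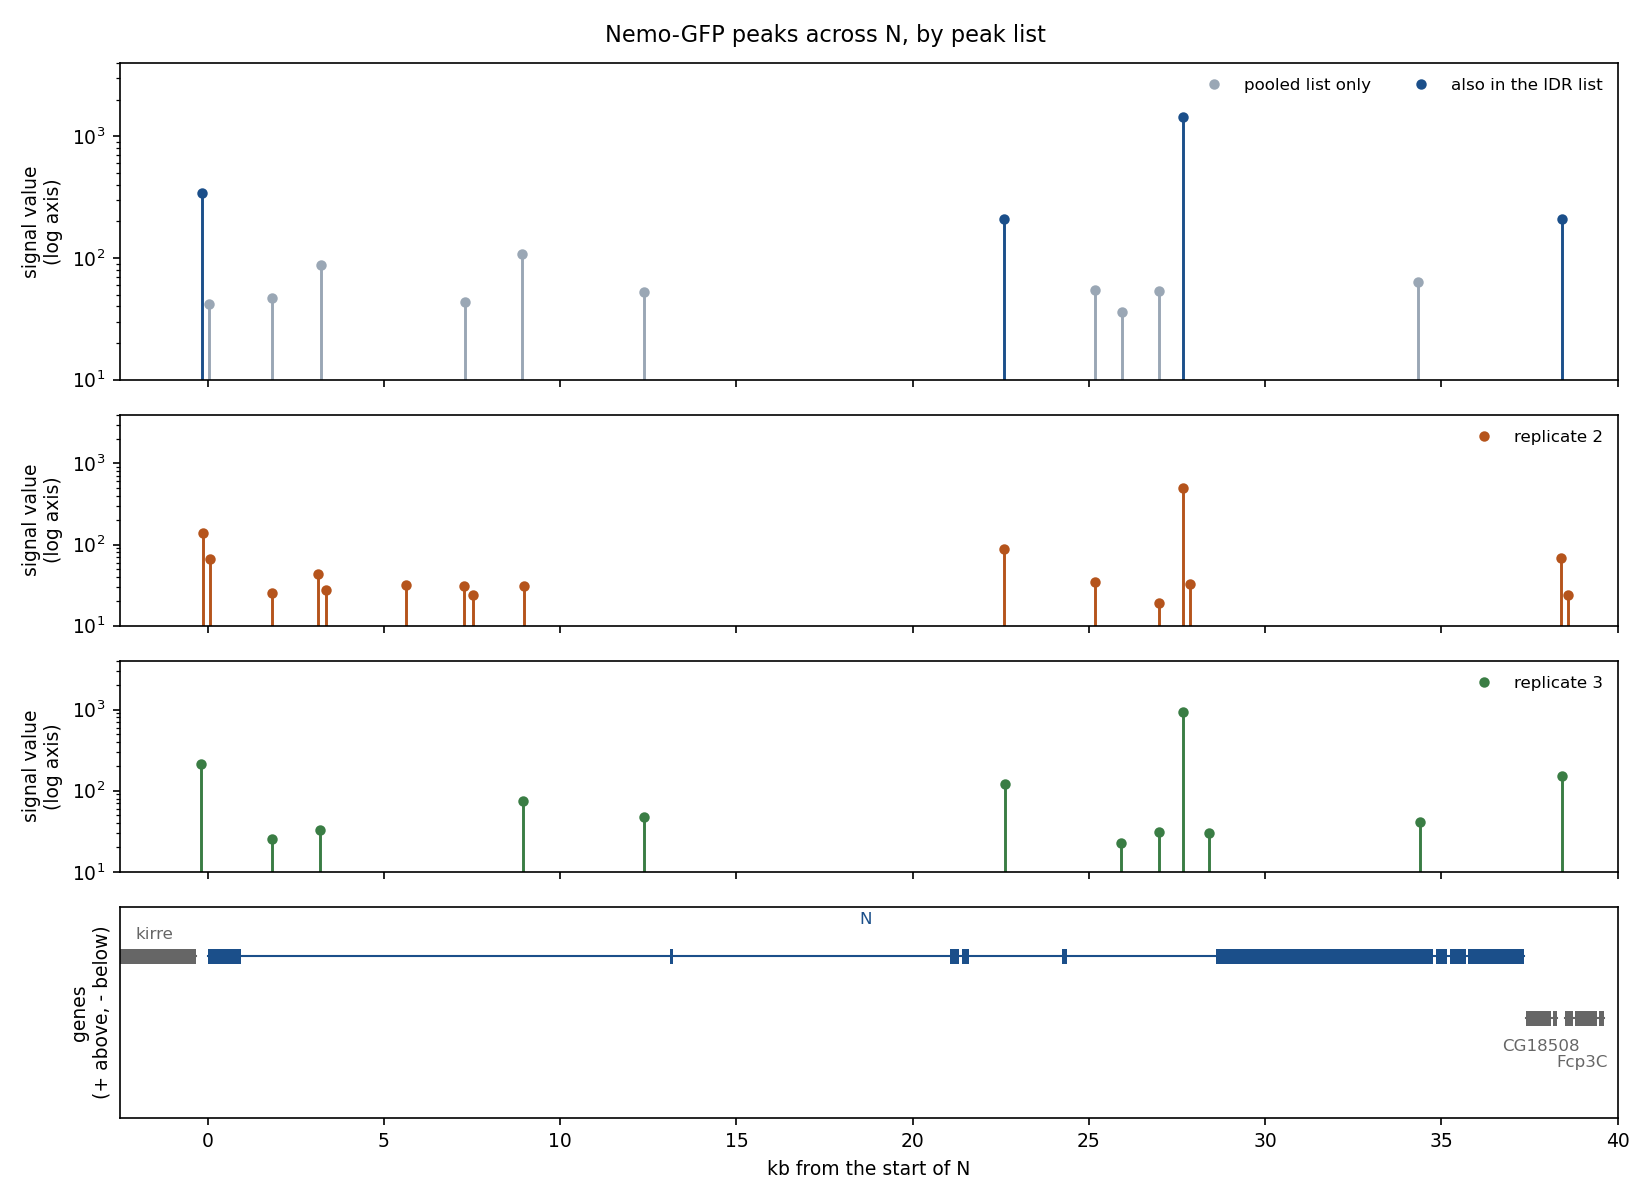
Peaks across N by list: height is the signal value (log axis), the horizontal axis is the distance in kb from the start of N, and the lowest panel shows exons as boxes and introns as lines. The intron 5 peak of 1431 is the tallest in all 3 panels, above the promoter peak of 342.

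The 2 nuclear partners differed. Su(H), which encodes the DNA-binding protein of the pathway (chr2L:15039488-15043334, plus strand), had an IDR summit at −62 bp with a signal value of 289 (rank 5444), and 71.0% of genes had a stronger one. Replicate 2 had 2 promoter peaks, 102 at −273 bp (rank 6348) and 92.7 at −55 bp (rank 7087), and replicate 3 had 1 of 198 at −61 bp (rank 4892). The start of Su(H) lies 627 bp from that of CIAPIN1, head to head, so the peak may belong to either gene. H (chr3R:20621938-20628915, plus strand), which encodes the protein that turns Su(H) into a repressor, had no promoter summit in the IDR, pooled or replicate 3 lists. Replicate 2 alone had peaks there, 125 at −28 bp (rank 4855) and 51.4 at +175 bp in the 5′ UTR (rank 12450).

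Counted together, 6 of the 10 genes had a promoter summit in the IDR list (N, Su(H), E(spl)mdelta-HLH, E(spl)mbeta-HLH, E(spl)m3-HLH and E(spl)m7-HLH), against 43.8% of all protein-coding genes. The 7 bHLH genes gave 4 and the other 3 genes gave 2. In the pooled list the count was 9 of 10 (61.8% of all genes), in replicate 2 10 of 10 (62.2%) and in replicate 3 9 of 10 (61.1%), and all 7 bHLH genes had a summit in each of these 3 lists. In replicate 3 the strongest promoter peaks of E(spl)mgamma-HLH, E(spl)m5-HLH and E(spl)m8-HLH had q-values above 0.05 (−log10 q of 1.19, 0.96 and 0.5), as did 14776 peaks of that list. By height, 3 of the 6 were in the top 7.68% of genes with such a summit and the other 3 were below the middle. Both members with a head-to-head neighbour had an IDR summit (73.0% of such genes in the genome), and 4 of the other 8 did (27.3%).

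The order of the 9 genes by pooled signal value began with E(spl)m3-HLH, followed by E(spl)m7-HLH, E(spl)mdelta-HLH, N, Su(H), E(spl)mbeta-HLH, E(spl)mgamma-HLH, E(spl)m5-HLH and E(spl)m8-HLH. Replicate 3 kept the order of all 8 neighbouring pairs and replicate 2 kept 6. In replicate 2 E(spl)mbeta-HLH (140) stood above both N (138) and Su(H) (102), and E(spl)m8-HLH above E(spl)m5-HLH, so the order among N, Su(H) and E(spl)mbeta-HLH and that of E(spl)m5-HLH and E(spl)m8-HLH did not repeat. In all, 14 IDR summits lay at the promoters, in the introns of N or within the complex, and each overlapped a peak in both full replicate lists. With summits required to lie within 100 bp, 13 did, the exception being the second E(spl)m2-BFM summit in replicate 3. The IDR peaks stand in the pooled list, which was derived from the same replicates, so this overlap is no independent check.

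From the start of E(spl)mdelta-HLH to the end of E(spl)m8-HLH the complex covers 43.4 kb (chr3R:25997621-26041008) and held 9 IDR summits, 0.207 per kb against 0.068 over the genome. The pooled list had 35 there, replicate 2 had 41 and replicate 3 had 30, or 0.807, 0.945 and 0.691 per kb against 0.218. The genome figures cover all chromosome sequence, chromosome Y included. The complex is packed with genes, and its summit density was not set against that of other gene-dense regions. Of the 9 IDR summits, 8 lay between genes, 0 in coding sequence and 1 in an exon of lncRNA:CR43643. Of the other 26 pooled summits, 19 lay between genes and 1 in coding sequence. The shares of these places over all summits are not given here, so the counts are not read as a trait of the complex.

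The IDR summits were unevenly spread. Between E(spl)mbeta-HLH and E(spl)malpha-BFM, a Bearded family gene, a summit at 26009092 had no start within 1000 bp and a signal value of 1184 (rank 620), with 438 in replicate 2 (rank 536) and 749 in replicate 3 (rank 660). A summit of 528 followed at 26012988, with 202 and 333 in the replicates, and 1 of 540 at −254 bp from Kaz-m1, whose product is related to Kazal-type protease inhibitors. E(spl)m2-BFM, another Bearded family gene, had a summit of 1240 at −506 bp (430 and 794 in the replicates), and the same peak interval held a second summit of 193, which replicate 3 did not resolve. A summit of 446 lay at 26020445, and the next was that of E(spl)m3-HLH.

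After E(spl)m3-HLH no IDR summit came for 15267 bp, up to E(spl)m7-HLH. This longest gap of the complex held the starts of E(spl)m3-HLH, E(spl)m4-BFM, E(spl)m5-HLH and E(spl)m6-BFM. The pooled peaks of E(spl)malpha-BFM (124), E(spl)m4-BFM (102) and E(spl)m6-BFM (122) were of the same order as that of E(spl)m5-HLH. Beyond E(spl)m8-HLH the co-repressor gene gro had IDR summits of 529 at −101 bp and of 1509 in an intron, at −149 bp from another of its starts.

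**Figure D3:**
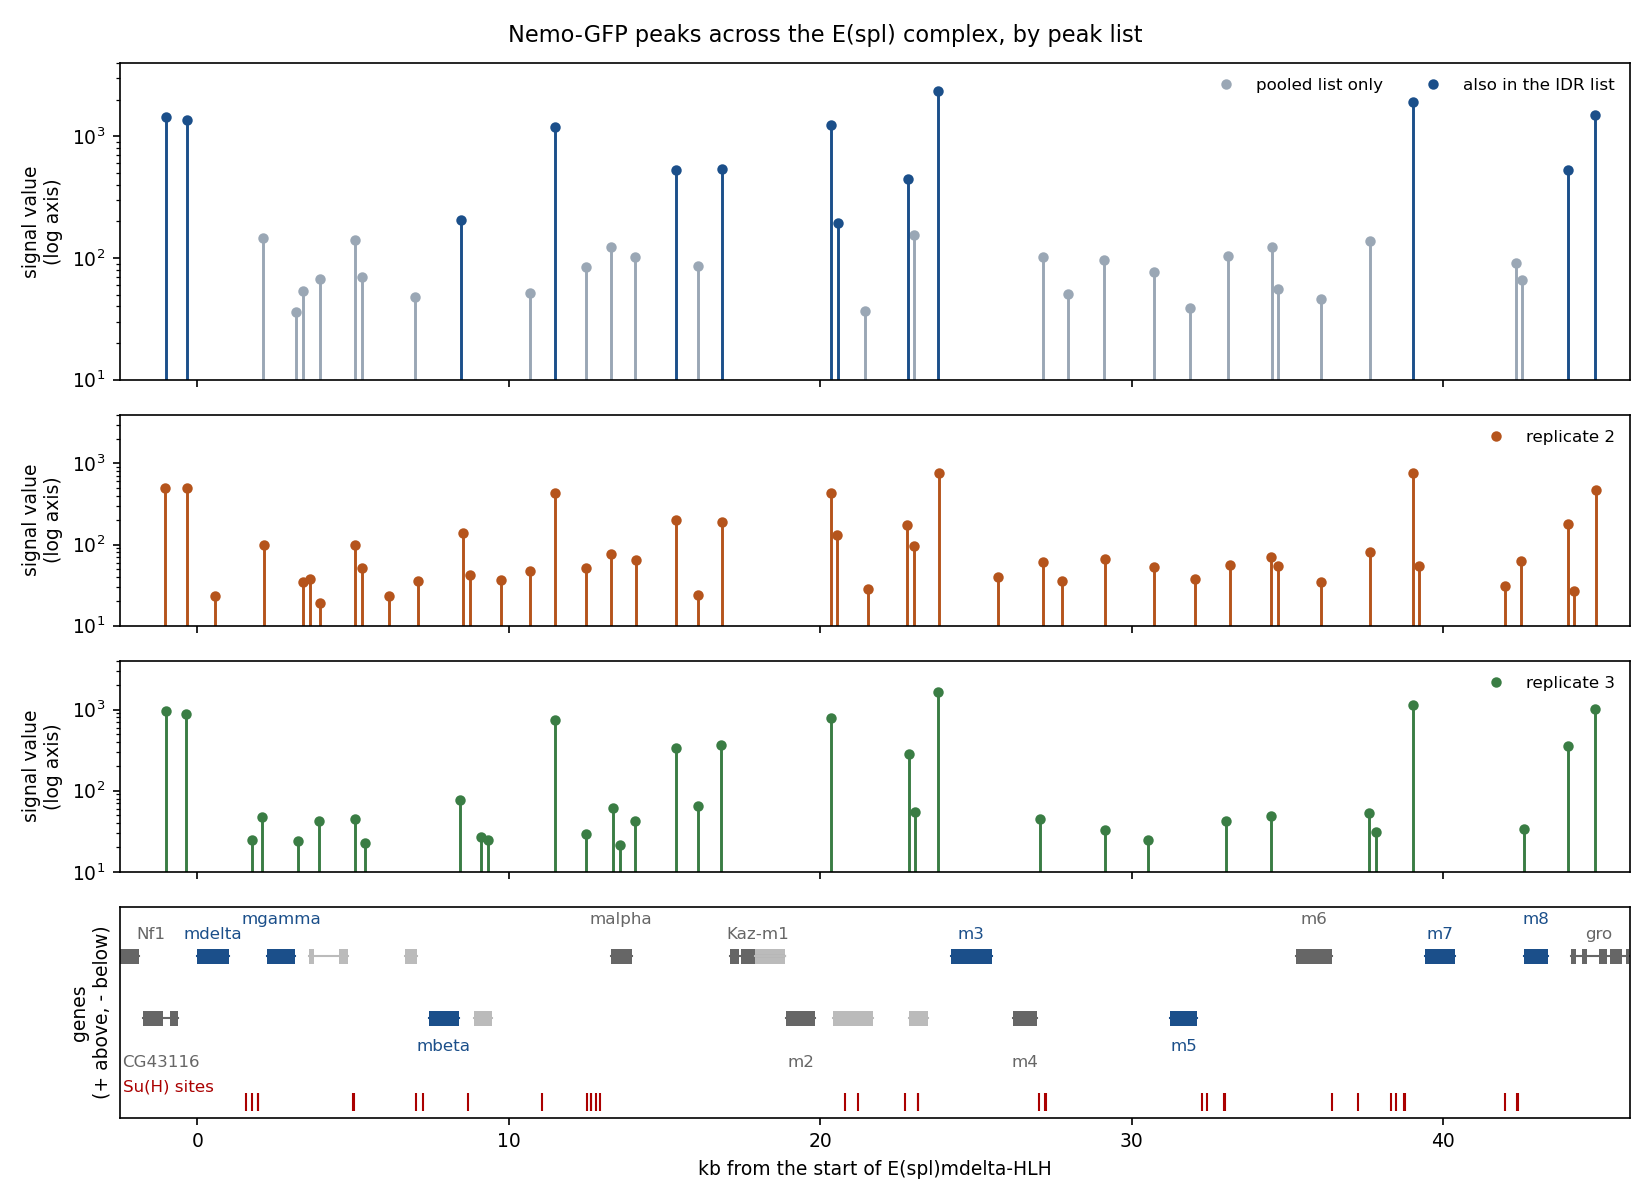
Peaks across the E(spl) complex by list, with the signal value (log axis) against the distance in kb from the start of E(spl)mdelta-HLH; the lowest panel shows genes (bHLH genes in blue, other coding genes in dark grey, non-coding RNAs in light grey) and Su(H) sites as red ticks. The IDR summits of E(spl)m3-HLH (2377) and E(spl)m7-HLH (1909) bound the 15267 bp gap, and the pooled peaks of E(spl)mgamma-HLH, E(spl)m5-HLH and E(spl)m8-HLH are at 146 or below.

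Su(H) sites were dense in the complex. The span held 36 sites, 0.83 per kb against 0.106 over the genome. None of the 14 IDR windows (201 bp around each summit) held a site, near the share of 2.02% over all IDR windows. Of the 14, 9 lay in the span, where the local density of sites gives 0.167 per window. Of the other 26 pooled windows of the span, 23.1% held a site. These sets also differ in peak strength, and the difference was not tested. The middle of 1 site lay 98 bp from an IDR summit of the span, so that it ran past the window, and the median distance of the 36 sites to the nearest IDR summit was 1610 bp.

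Among the members, sites in the 500 bp before the TSS were at genes with weaker peaks. E(spl)mgamma-HLH had 3, with first bases at −488, −294 and −269 bp, E(spl)m8-HLH had 2, at −224 and −199 bp, and E(spl)m5-HLH had 2, at −309 and −146 bp. E(spl)mbeta-HLH had 1 at −292 bp and Su(H) had 1 at −349 bp. N, H, E(spl)mdelta-HLH, E(spl)m7-HLH and E(spl)m3-HLH had none in that window. Farther out, the nearest sites before E(spl)m7-HLH lay at 38.748 and 38.773 kb from the start of E(spl)mdelta-HLH, with the E(spl)m7-HLH start at 39.417 kb. The nearest before E(spl)m3-HLH lay at 23.13 and 23.155 kb, with its start at 24.202 kb. Over all 19276 protein-coding starts, 5.26% had at least 1 site in the 500 bp before the TSS, 0.202% at least 2 and 0.0208% at least 3. The facing pairs of E(spl)mgamma-HLH and E(spl)m8-HLH, printed above, both join TGTGAGAA to CGTGGGAA. Of all starts, 3 (0.0156%) had a pair at that spacing, and the starts of these 2 genes are among them. The same distance between first bases recurred in the span, at the sites named before E(spl)m7-HLH and E(spl)m3-HLH. It also recurred at 4.992 and 5.017 kb, and at 27.237 and 27.262 kb before E(spl)m4-BFM. The strands of these further sites are not given here.

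The 9 IDR windows of the span had a median GC content of 25.9% (range 20.4 to 58.7), and 7 of them (77.8%) were under 40%, near the 80.1% of all IDR windows. The other 26 pooled windows of the span had a median of 48.3%, and 2 (7.69%) were under 40%, where 46.4% of all such windows were. Of these 26, 6 held a Su(H) site, among them those at E(spl)m8-HLH, E(spl)m5-HLH and E(spl)m4-BFM. The 2 IDR windows of the span above 40% were its weakest, E(spl)mbeta-HLH at 58.7% and the second E(spl)m2-BFM summit at 56.7%. Over the genome the median GC content was 33.3% for IDR windows and 40.8% for the other pooled windows, and the shares with a Su(H) site were 2.02% and 2.29%. The window of intron 5 of N had 34.8%, that of its promoter 47.3% and that of Su(H) 39.8%.

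**Figure D4:**
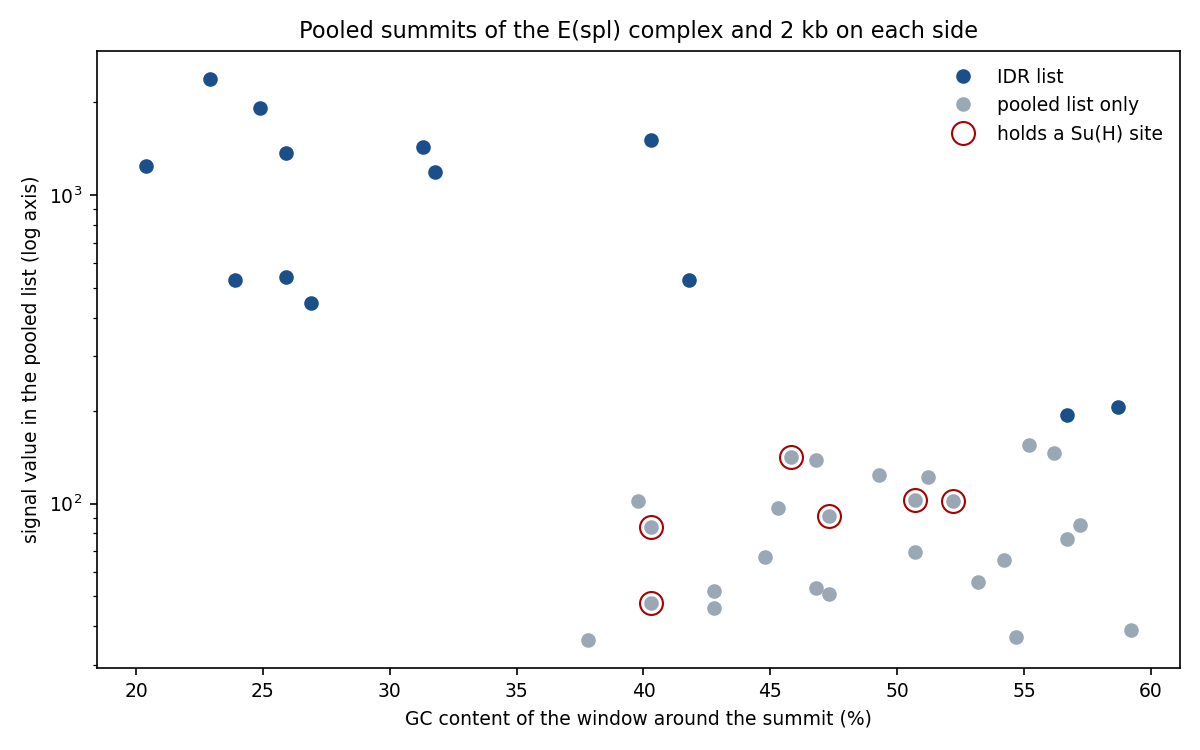
Signal value in the pooled list (log axis) against the GC content of the 201 bp around each pooled summit of the E(spl) complex and 2 kb on either side; red rings mark windows with a Su(H) site. The 6 windows with a site all belong to pooled peaks at 141 or below with at least 40.3% GC, and the IDR peaks with a signal value above 1000 lie between 20.4 and 40.3% GC, the highest GC content being that of the gro summit of 1509.

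GC content also went with the replicate in which a peak ranked higher. Of IDR peaks with a summit within 100 bp in both replicate lists, 38.6% of those under 40% GC and 61.0% of the others ranked higher in replicate 2; for the other pooled peaks the shares were 32.1% and 58.2%. In the span most pooled summits did so in either GC class, 6 of 8 under 40% and 13 of 15 others. E(spl)mbeta-HLH, E(spl)mgamma-HLH and E(spl)m8-HLH were among the latter kind, with higher ranks in replicate 2. The part of base composition in these peak heights was not tested.

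Each of the other short sequences was in at most 2 of the 14 IDR windows. With so few windows these counts cannot be set apart from the shares of all IDR windows, given in brackets, and no difference was tested. Of the words that E(spl) proteins are known to bind, CACGTG was in 1 window, the summit of 446 (1.79% of all IDR windows), while CACGCG was in 0 (2.87%). The N box CACNAG was in 1, that of E(spl)mbeta-HLH (18% of all). The proneural E-box CAGCTG was in 0 (8.72%) and its variant CAGGTG also in 0 (4.60%). The word CAGGTAG of the early activator Zelda was in 0 (0.613%), and the DNA replication-related element TATCGATA in 1, that of Su(H) (5.90%). GAGAG, bound by the GAGA factor, was in 2, those of E(spl)m3-HLH and of intron 4 of N (18.8%). All were searched on both strands, and a word in a window is a description, not a shown binding site.

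The other genes of the pathway, 46 in number, had an IDR promoter summit in 27 cases and a pooled one in 42, against 43.8% and 61.8% of all protein-coding genes. The 27 had a median signal value of 436 for their strongest summit, against 407 for all genes with one. All 14 of the list with a head-to-head neighbour had an IDR summit (73.0% of such genes in the genome), and 13 of the other 32 did (27.3%). The counts by role follow, without a test, and the roles differ in such neighbours: all 4 ubiquitination genes, 3 of 5 nuclear partners and 0 of 7 proneural genes and partners have one.

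Of the ligands, Delta had a summit near the lowest signal value of the IDR list, 166 at +77 bp (rank 9272), with 63.0 and 93.6 in the replicates. Ser had none, with a pooled peak of 103 and 72.7 and 30.9 in the replicates. Among 5 genes for ligand uptake and sorting 4 had a summit, led by numb (1642), which blocks Notch in asymmetric divisions, and mib1 (929), a ubiquitin ligase for the ligands; spdo had none. All 3 genes for sugar transfer to the receptor had one, with rumi, an O-glucosyltransferase, at 1103 and fng, which extends O-fucose, at 867. Of 6 proteolysis genes 4 had one, with the gamma-secretase subunits aph-1 at 1422 and Psn at 322, and neither Tace nor Nct did.

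All 4 ubiquitination genes had a summit, with the ligases Su(dx) at 720 and Nedd4 at 436, and so did all 5 nuclear partners, with gro at 1509 and the co-activator gene mam at 717. Of the 9 Bearded family and complex genes 3 had one, E(spl)m2-BFM (1240) and Kaz-m1 (540) leading. Of 5 other Hairy and E(spl) type repressors only Sidpn did (296), while hry had a pooled peak of 162 and dpn none. Of 7 proneural bHLH genes and partners 2 did, da (522), which encodes the common partner of proneural proteins, and emc (178), their inhibitor, while the proneural genes ac and sc had none in any list.

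**Figure D5:**
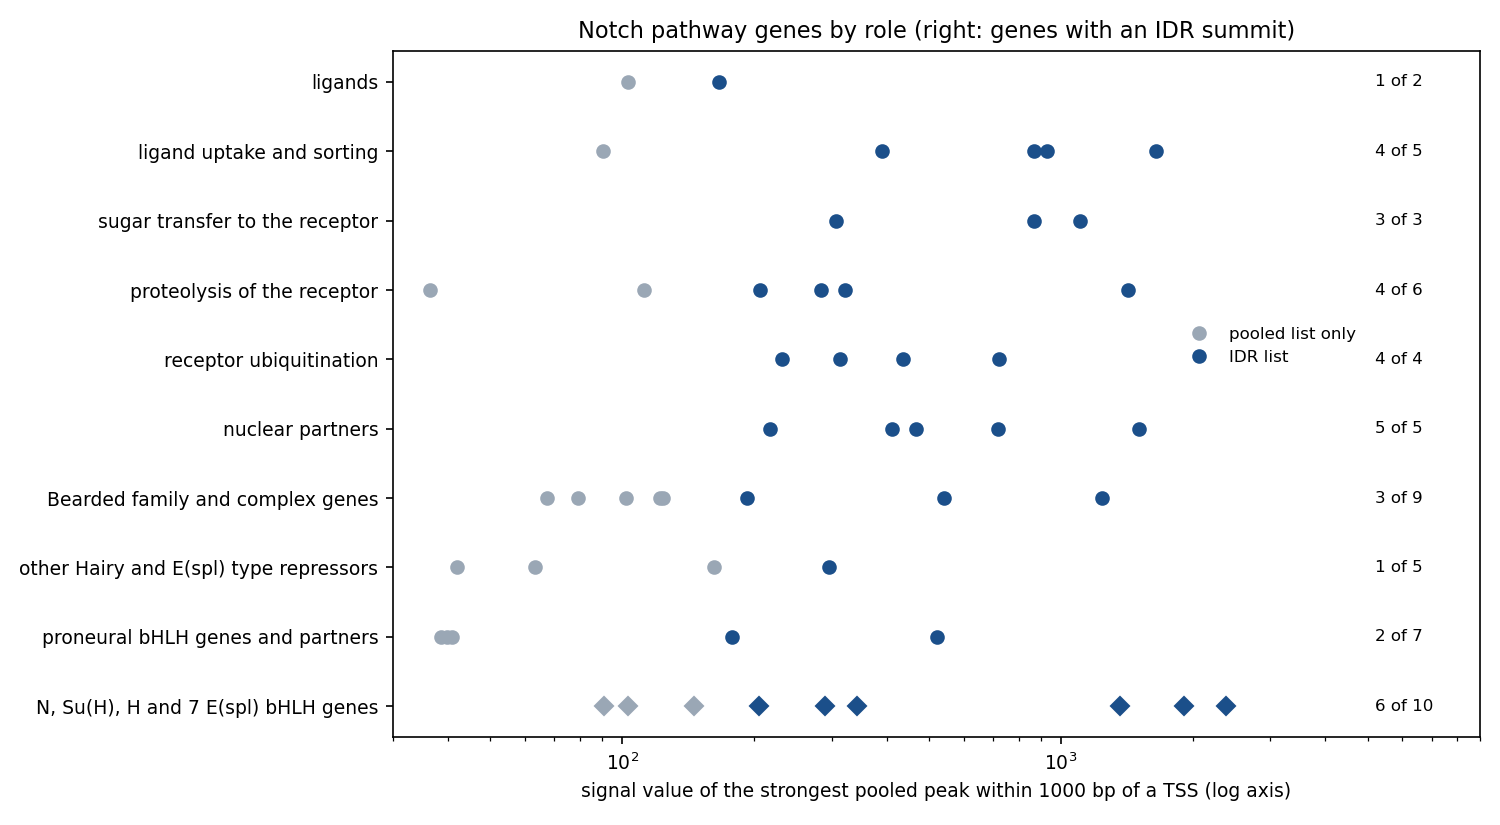
Signal value of the strongest pooled promoter peak (log axis) for each gene of the Notch pathway list by role, blue where the summit is in the IDR list, with the 10 genes described here as diamonds; genes without a pooled peak are not drawn. The blue symbols number 27 of the 46 listed genes and 6 of the 10, and the highest value is that of E(spl)m3-HLH at 2377.

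Read depth was unknown and each value rests on 2 replicates, so the absence of a peak from a list is no measure of absent binding. The H peak of replicate 2 (rank 4855) is missing from the 30000 pooled peaks, and the reason was not tested.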

How the data were processed

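The authors deposited 4 narrowPeak lists on dm6: 1 for each of the 2 replicates, 1 for their pool and 1 thresholded by IDR, whose 9299 peaks all stand in the pooled list. The deposited signal value (column 7) has a scale of its own in each list and was used within lists. The −log10 q-value (column 9), also deposited by the authors, served for an alternative with q at most 0.05. Per the deposited text notes, each list was derived together with 1 further file, taken as the control, whose nature is not given in the sources used here. The aligner, peak caller, settings and IDR threshold are likewise not given in the sources used here, and read depth is unknown. The labels list the replicates as separate biosamples; they share 1 strain.

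Genes and TSSs came from Ensembl release 115 (BDGP 6.54) without transposable elements (18277 genes); all 46 pathway symbols matched, some under newer names (Delta, hry, Nct, Kaz-m1, Hesr). Sequences came from the RefSeq copy of Release 6, which shares dm6 coordinates, read with Python 3.11.15, pandas 2.3.3 and numpy 2.4.6, and drawn with matplotlib 3.10.9. Coordinates count from 1. Scripts were tested on simulated data. Overlap of peaks needed 1 bp. Head-to-head genes have an opposite-strand coding TSS at most 1000 bp upstream. The members and lists were chosen with earlier results of these data known. Named genes were the 10 members, the rest of the complex, genes starting within 1000 bp of a member's summit, and for each role the 2 with the strongest IDR summit and up to 2 without one, in list order. The mention of CG18508, the split at 40% GC and the facing pairs of sites were chosen after values were seen. Alternatives were other distances, lists, overlaps and windows, each replicate alone, and, added after the data were seen, a span wider by 2000 bp on each side.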

Additional observations from a re-analysis of the deposited data

How the results depend on the processing

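Of 34 recomputed values 25 stayed within 1.5 times the main count or kept most of the order, and 9 moved. All pooled peaks gave 7 bHLH genes with a promoter summit, 35 summits in the complex and 10 in introns of N, against 4, 9 and 2 in the IDR list; pooled peaks with q at most 0.05 gave 7, 22 and 4. The IDR peaks above the median rank alone left 1 intronic summit of N. With 150 bp on each side of the summit, 1 member window held a Su(H) site (3.25% of all IDR windows) in place of 0. Using the strongest 9299 peaks of 1 replicate, the members with a summit ranged from 5 (without replicate 2, which lost E(spl)mbeta-HLH) to 8 (without replicate 3, which added H and E(spl)mgamma-HLH), the bHLH genes from 3 to 5, the summits in the complex from 7 to 14 and those in introns of N from 2 to 2. Within 2000 bp of a TSS the members numbered 7. E(spl)m8-HLH was added there only through the summit of 529 that lay −101 bp from the start of gro. At a reciprocal overlap of 50%, 11 of the 14 IDR peaks were found in both replicates. No paired analysis was possible because there is 1 group. Depth is unknown, so the limit of detection is set by list length.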
